A study of Homo sapiens with 40 samples.

Results

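The 60 genes described here mostly encode proteins that carry a cell into and through mitosis. They run from the cyclins that start it to the factors that split the daughter cells, and also include the centriole protein HYLS1. They were given by name as mitotic genes, in a list drawn up with earlier results of these data known, and all 60 were found among the 15788 genes measured and among the 12591 genes tested. RNA had been sequenced from the BEAS-2B line (human airway epithelial cells), grown to confluence, held overnight without serum and then treated for 2 h. There were 10 groups of 4 libraries. The groups were vehicle, RNO at 1 uM, ONO-AE1-329 (ONO below) at 0.1 nM, 1 nM or 1 uM, vilanterol at 100 nM, and each of these 4 agonist treatments together with 1 uM RNO. RNO is roflumilast N-oxide, an inhibitor of the PDE4 enzymes that degrade cyclic AMP (cAMP). ONO activates EP4, a receptor for prostaglandin E2, vilanterol activates the β2-adrenoceptor, and both receptors raise cAMP. All 10 groups are of 1 cell line, and the labels do not say what the vehicle was. They number the replicates of a group from 1 to 4 but do not say that they came from separate cultures, so every p-value below measures only the spread between these libraries.

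Transcripts of mitotic genes are made mainly in G2 and M phase, the part of the cycle after the DNA has been copied. Cyclin B with CDK1 drives entry into mitosis, the Polo and Aurora kinases mature the centrosomes and build the spindle, the kinetochores tie chromosomes to it, and the spindle checkpoint holds back the anaphase-promoting complex until all are attached. Many of these genes share a promoter layout in which CCAAT boxes, bound by the factor NF-Y, lie upstream of a cell cycle genes homology region (CHR), read as TTTGAA or TTCGAA and bound by the MuvB complexes that repress the gene in resting cells and activate it before mitosis.

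RefSeq promoter windows (build GRCh38.p14, 250 bases before to 50 bases after the start of each gene) matched 51 of the 60 genes. No entry was matched for AURKA, TPX2, BUB3, TTK, BIRC5, FAM83D, UBE2C, FOXM1 and CDCA2. The sequences below belong to 7 genes that were lower in many of the treatments, and they show how the CCAAT and CHR letters lie in these promoters. HJURP has the longer stretch at chr2:233854567-233854785 on the minus strand, 250 to 32 bases before the start, and CCNF at chr16:2429197-2429393 on the plus strand, 250 to 54 bases before the start. The others are 30-base sites around the CHR letters: PLK1 at chr16:23678848-23678877 (plus strand), PSRC1 at chr1:109283157-109283186 (minus strand), CENPA at chr2:26786026-26786055 (plus strand), CDCA8 at chr1:37692481-37692510 (plus strand) and BORA at chr13:72727787-72727816 (plus strand). All are printed 5′ to 3′ along the gene's own strand. Capitals mark the CCAAT box, the same box read on the other strand (ATTGG) and both spellings of the CHR.
HJURP: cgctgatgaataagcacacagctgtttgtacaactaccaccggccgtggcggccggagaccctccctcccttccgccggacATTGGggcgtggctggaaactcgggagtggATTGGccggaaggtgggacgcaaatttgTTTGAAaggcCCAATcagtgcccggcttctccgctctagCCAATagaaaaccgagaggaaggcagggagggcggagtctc
CCNF: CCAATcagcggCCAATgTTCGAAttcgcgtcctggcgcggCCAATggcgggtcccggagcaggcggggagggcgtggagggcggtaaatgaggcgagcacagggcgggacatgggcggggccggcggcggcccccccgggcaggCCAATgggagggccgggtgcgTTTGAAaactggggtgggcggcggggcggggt
PLK1: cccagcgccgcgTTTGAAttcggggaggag
PSRC1: gggcctgagagaTTCGAAaggagccccgcc
CENPA: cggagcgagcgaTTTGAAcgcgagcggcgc
CDCA8: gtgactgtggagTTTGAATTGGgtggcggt
BORA: gaggagttgccaTTCGAAtttcctacgcgg

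The HJURP stretch holds 4 CCAAT boxes and 1 TTTGAA, with boxes on both sides of the TTTGAA and not only upstream of it. The CCNF stretch holds 4 CCAAT boxes, 1 TTCGAA and 1 TTTGAA. In CDCA8 the TTTGAA and an ATTGG share a base, with the ATTGG on the downstream side. The short sites of PLK1, PSRC1, CENPA and BORA hold no CCAAT box and so do not show the order of the elements. In the full windows of PLK1, PSRC1 and CENPA the CCAAT boxes lie upstream of the CHR letters. The boxes are 73, 74, and 205 and 130 bases before the start, and the CHR letters 29, 29 and 18 bases. BORA has the other order, with TTTGAA and TTCGAA at 177 and 124 bases and CCAAT boxes at 96 and 64 bases. Searched on both strands, CCAAT was found in 40 of the 51 windows (78.4%), against 35.7% of 27305 RefSeq promoter windows of the same length. TTTGAA was found in 34 (66.7%, against 15.4%) and TTCGAA in 6 (11.8%, against 1.45%). Windows with both a CCAAT and a TTTGAA or TTCGAA numbered 32 (62.7%, against 6.58%). TGACGTCA, the full site of the cAMP-responsive factor CREB, was found in 4 (7.84%, against 1.98%), those of CCNA2, CENPE, NDC80 and PRC1. The shorter TGACG, which is also contained in TGACGTCA, was found in 22 (43.1%, against 25%). A match is a description of letters and not a measured site.

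The 40 libraries had column totals between 956888 and 1091466 TPM (a transcript share corrected for transcript length and, as far as the deposited values show, adjusted between samples), and their depth is unknown, since only normalised values were used. Vehicle library 3 had the highest total, and it stood farthest from its group (SD of the deviations from the group means over genes 0.209 on the log2 scale, against 0.099 to 0.169 in the other 39). The epithelial keratins KRT8, KRT18 and KRT17 were at 359, 292 and 706 TPM on average, but the epithelial adhesion genes CDH1 and EPCAM were at 0.745 and 0.265 TPM while the mesenchymal gene VIM was at 1306 TPM. The leukocyte gene LYZ and the endothelial genes PECAM1, VWF and KDR were all at or under 0.418 TPM. The cAMP-induced gene NR4A3 was at 1.35 ± 0.495 TPM in vehicle, 36.2 ± 3.94 TPM with 1 uM ONO and 73.3 ± 6.05 TPM with vilanterol (SD, n = 4).

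Many of the mitotic genes fell after 2 h of 1 uM ONO or 100 nM vilanterol, which the labels call maximal concentrations, and no rise passed the test. With 1 uM ONO 26 of the 60 fell, among which were HJURP, the chaperone of the centromeric histone, the cyclin CCNF and the kinases PLK1 and AURKA. Of all genes tested, 3.02% fell and 4.19% rose in that comparison. With 100 nM vilanterol 41 of the 60 fell, where 7.97% of all genes fell and 9.69% rose. Here a call is a limma p under 0.05 after Benjamini-Hochberg adjustment over every gene tested in that comparison. The median log2 fold change of the 60 genes, on the log2(TPM + 1) scale, was -0.15 with 1 uM ONO and -0.24 with vilanterol, against -0.0031 and -0.0086 over all genes tested. The lowest log2 fold change in both comparisons was that of HJURP, which fell to 0.654 and 0.545 of its vehicle mean. The 4 treated libraries all lay under the 4 vehicle libraries for 26 of the 60 genes with 1 uM ONO (3.72% of all genes) and for 37 with vilanterol (6.76% of all genes). All comparisons with vehicle use the same 4 vehicle libraries. In RNA from whole cultures, fewer cells in mitosis and less RNA of a gene per cell cannot be told apart. With the spread taken from only the 8 libraries compared, 11 genes fell with 1 uM ONO and 25 with vilanterol, and without vehicle library 3 the counts were 24 and 41. The shares of all genes given above belong to the fit of all 40 libraries and not to these other fits. Of the 6 epithelial markers 4 were high enough to be tested. KRT17 rose 2.99-fold with 1 uM ONO and 4.3-fold with vilanterol, KRT18 fell to 0.737 and 0.752 of vehicle, KRT8 fell with vilanterol (to 0.792, and was at 0.804 with 1 uM ONO, adjusted p = 0.0914) and KRT7 was not called. None of the 6 mesenchymal markers was called, and the part of the keratin changes in these results was not tested.

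**Figure D1:**
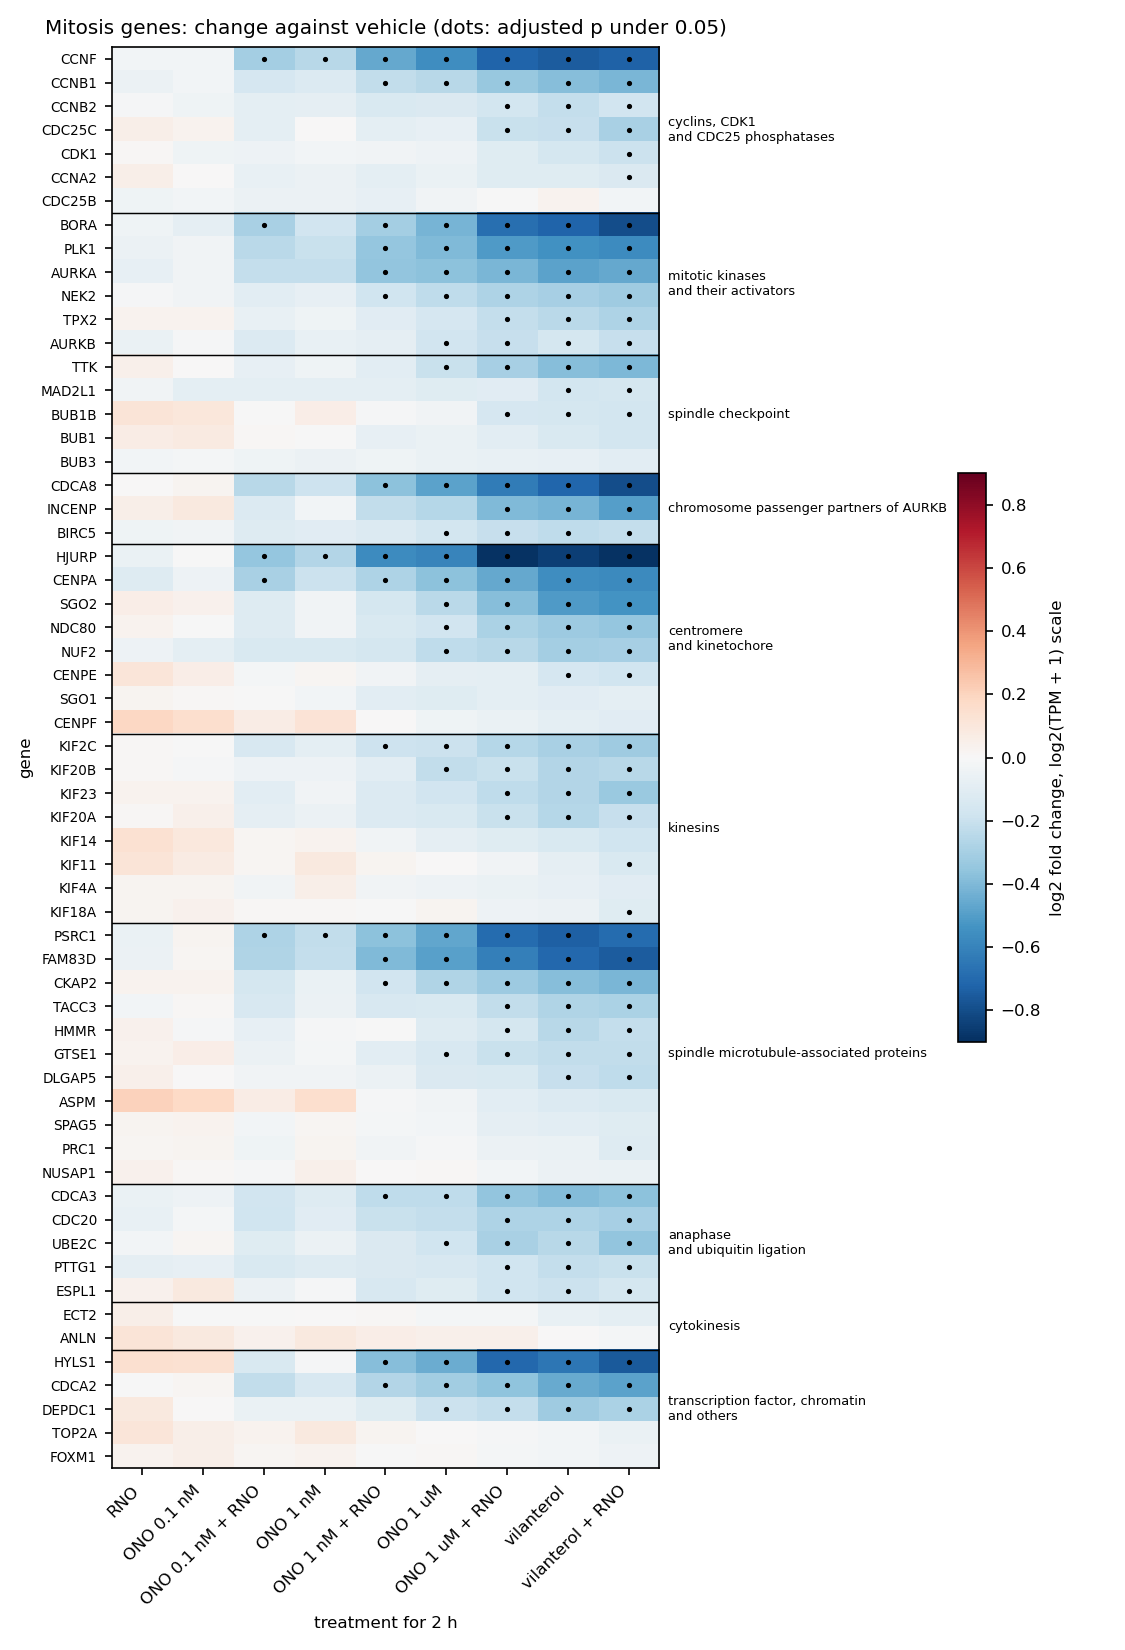
Log2 fold change (log2(TPM + 1) scale, colour) of the 60 mitotic genes, grouped by role (vertical), in the 9 treatments against vehicle (horizontal), with a dot where limma called the gene (adjusted p under 0.05). Calls are absent with RNO alone and with 0.1 nM ONO, number 26 with 1 uM ONO and 41 with vilanterol, and all are of lower values.

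Cyclins and their regulators start mitosis. Of the 7 genes of CDK1, its cyclins and the CDC25 phosphatases that activate CDK1, 2 fell with 1 uM ONO and 4 with vilanterol. CCNB1, the mitotic cyclin that activates CDK1, was at 205, 194, 225 and 183 TPM in vehicle libraries 1 to 4, at 181, 168, 167 and 161 TPM with 1 uM ONO and at 165, 158, 153 and 141 TPM with vilanterol. All 8 treated libraries lay under the lowest vehicle library. CCNF encodes cyclin F, which does not bind a CDK but gives an SCF ubiquitin ligase its substrates. It was at 9.19, 9.31, 10.3 and 10.1 TPM in vehicle, 6.03, 6.53, 6.63 and 5.93 TPM with 1 uM ONO and 5.65, 5.47, 5.64 and 4.78 TPM with vilanterol, with no overlap between vehicle and either agonist. CCNF fell to 0.647 of vehicle with 1 uM ONO (log2 fold change -0.56 ± 0.064 SE, adjusted p = 4.72e-08) and to 0.554 with vilanterol (log2 fold change -0.75). CCNB1 fell to 0.838 and 0.764 of vehicle (adjusted p = 0.00319 and 3.51e-06). CCNB2 and CDC25C also fell with vilanterol, by 0.21 on the log2 scale in both. CDK1 itself was at 157 ± 21.3 TPM in vehicle and 139.9 ± 5.56 TPM with vilanterol (SD, n = 4, adjusted p = 0.0871), and the 2 groups overlapped. Without vehicle library 1 or 2 CDK1 fell with vilanterol (limma adjusted p = 0.0259 and 0.0291). With the replicate number as a block CDK1 fell as well (limma adjusted p = 0.00294). CDC25B was at 77.0 ± 3.69 and 78.6 ± 1.89 TPM.

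Of the 6 mitotic kinases and kinase activators, 5 fell with 1 uM ONO and all 6 with vilanterol. PLK1, the Polo kinase of centrosome maturation and spindle assembly, was at 84.1, 84.8, 82.1 and 76.5 TPM in vehicle, 67.5, 61.8, 60.1 and 58.0 TPM with 1 uM ONO and 61.3, 57.1, 54.1 and 51.6 TPM with vilanterol. AURKA, the Aurora kinase of the centrosome, was at 119, 113, 127 and 103 TPM, 98.1, 89.3, 86.1 and 83.3 TPM and 86.7, 83.5, 81.6 and 78.3 TPM in the same groups. For both kinases every treated library was lower than every vehicle library. BORA, the cofactor through which AURKA activates PLK1, was at 8.23, 7.79, 7.60 and 8.11 TPM in vehicle, 5.79, 5.47, 5.65 and 5.79 TPM with 1 uM ONO and 4.196, 4.48, 4.35 and 4.62 TPM with vilanterol. The 3 groups of BORA did not overlap, with vilanterol lowest. BORA fell to 0.715 of vehicle with 1 uM ONO (adjusted p = 5.42e-06) and to 0.556 with vilanterol (adjusted p = 1.5e-11). PLK1 fell to 0.755 and 0.684, and AURKA to 0.771 and 0.714. NEK2, a kinase that separates the centrosomes, was at 43.4, 45.6, 51.6 and 44.4 TPM in vehicle, 41.2, 38.8, 39.5 and 37.8 TPM with 1 uM ONO and 37.1, 38.6, 37.4 and 36.5 TPM with vilanterol, again with vehicle above either agonist in every library. AURKB, the kinase of the chromosome passenger complex, fell less, to 0.884 and 0.894 of vehicle, and its treated and vehicle libraries overlapped. TPX2, which brings AURKA to the spindle, fell with vilanterol (to 0.845) and was at 0.898 of vehicle with 1 uM ONO (adjusted p = 0.133).

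The chromosome passenger complex couples AURKB to the inner centromere, and all 3 of its other subunits fell with vilanterol. CDCA8 (borealin) was at 49.1, 46.1, 49.5 and 46.1 TPM in vehicle, 36.3, 34.8, 31.9 and 32.5 TPM with 1 uM ONO and 33.8, 28.5, 25.9 and 27.2 TPM with vilanterol. No treated library of CDCA8 reached the vehicle range. It fell to 0.711 of vehicle with 1 uM ONO (adjusted p = 2.68e-05) and 0.605 with vilanterol (adjusted p = 5.78e-09). BIRC5 (survivin) fell to 0.891 and 0.851. INCENP, the scaffold of the complex, was at 33.2, 30.6, 20.6 and 26.9 TPM in vehicle and 23.7, 20.1, 18.5 and 18.9 TPM with vilanterol. Vehicle library 3 lay inside the vilanterol range of INCENP, and the fall to 0.73 passed the test (adjusted p = 0.00454) while the value with 1 uM ONO did not (adjusted p = 0.173). Without vehicle library 3 INCENP fell with 1 uM ONO as well (log2 fold change -0.39, limma adjusted p = 0.0131).

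Among the 8 centromere and kinetochore genes 5 fell with 1 uM ONO and 6 with vilanterol. HJURP loads CENPA, the histone H3 variant that marks the centromere, onto chromatin. HJURP was at 44.3, 39.3, 38.4 and 39.5 TPM in vehicle, 26.8, 26.5, 25.5 and 26.7 TPM with 1 uM ONO and 23.9, 21.6, 21.4 and 21.1 TPM with vilanterol. CENPA was at 32.7, 32.3, 41.7 and 33.5 TPM, 23.5, 29.9, 26.3 and 27.5 TPM and 24.0, 26.3, 21.4 and 22.1 TPM in the same groups. The vehicle libraries of both genes lay above all treated libraries, and for CENPA vehicle library 3 stood well above the other 3. HJURP fell to 0.654 of vehicle with 1 uM ONO (log2 fold change -0.59 ± 0.054 SE, adjusted p = 3.14e-10) and to 0.545 with vilanterol (log2 fold change -0.85 ± 0.054 SE, adjusted p = 1.3e-14). CENPA fell to 0.765 and 0.669 of vehicle (adjusted p = 0.000346 and 1.71e-07). NDC80 and NUF2, subunits of the complex that grips spindle microtubules, fell to 0.793 and 0.803 of vehicle with vilanterol. SGO2, one of the shugoshins that protect cohesion at centromeres, fell to 0.691, whereas its relative SGO1 was at 0.928 (adjusted p = 0.312). The large kinetochore protein CENPF was at 50.3 ± 9.61 TPM in vehicle and 46.7 ± 4.18 TPM with vilanterol, with overlapping libraries. Vehicle library 3 was the lowest of its group for CENPF, at 37.2 TPM, and without it CENPF fell with vilanterol (log2 fold change -0.22, limma adjusted p = 0.0411).

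**Figure D2:**
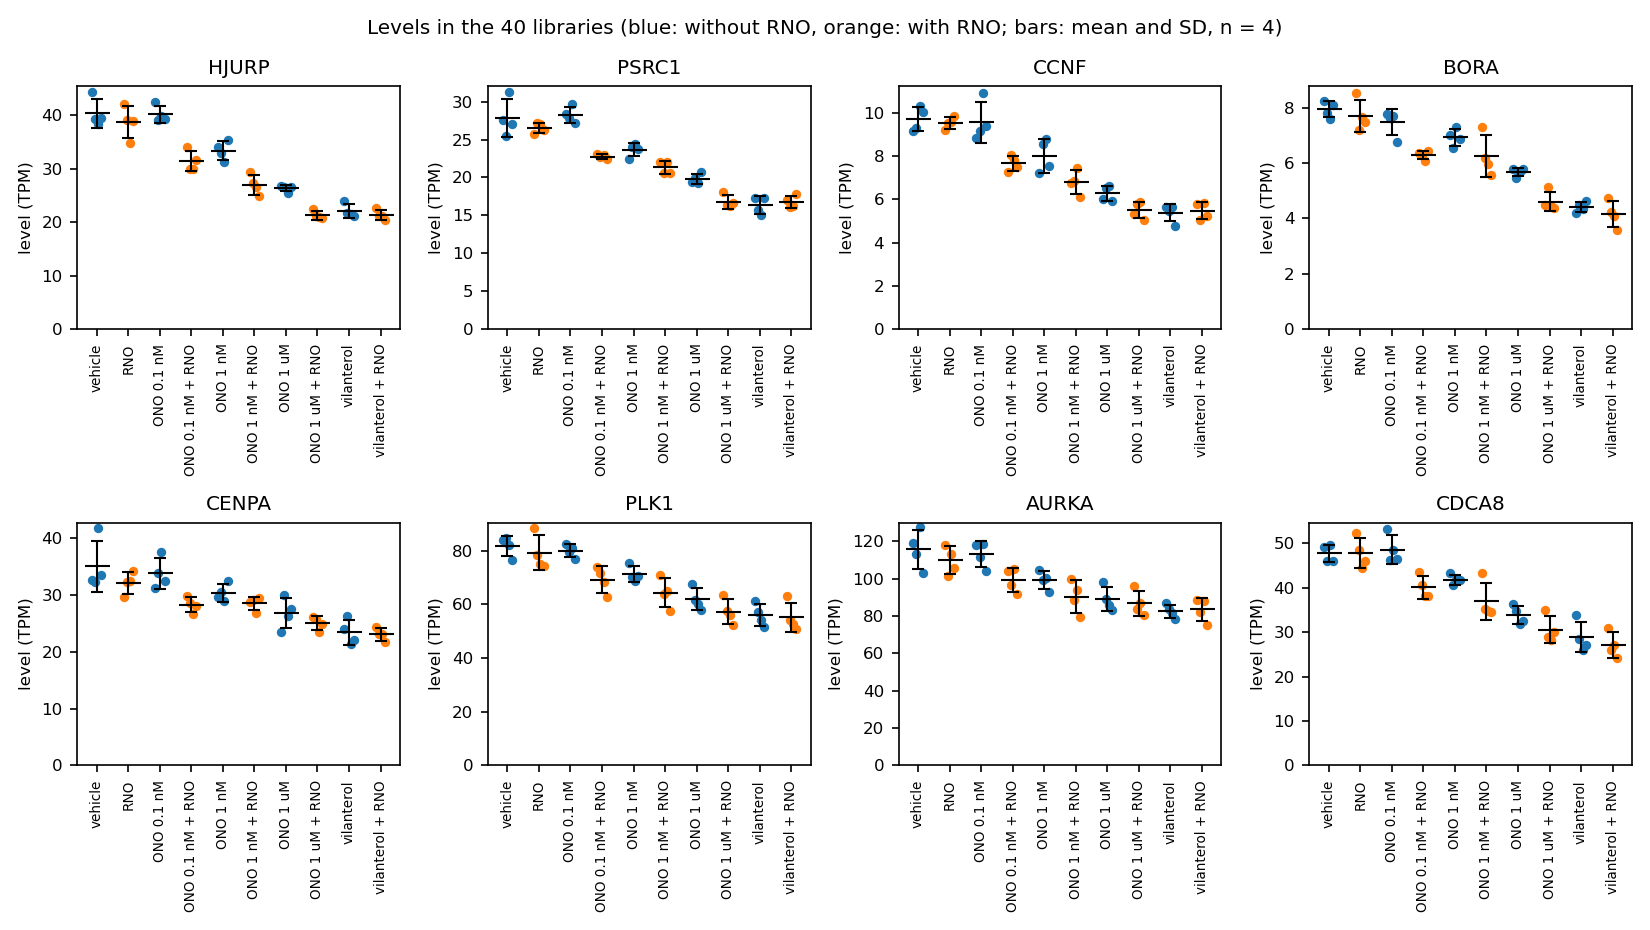
Level in TPM (vertical, from 0) of 8 mitotic genes in each of the 40 libraries (points), by group (horizontal), with the mean of 4 libraries and its SD. HJURP goes from 38.4 to 44.3 TPM in vehicle to between 21.1 and 23.9 TPM with vilanterol, and PLK1 from between 76.5 and 84.8 TPM to between 51.6 and 61.3 TPM.

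Of the 5 spindle checkpoint genes 1 fell with 1 uM ONO and 3 with vilanterol. TTK (MPS1), the kinase that starts checkpoint signalling, was at 56.8, 51.2, 52.4 and 52.5 TPM in vehicle, 50.7, 45.8, 43.0 and 45.1 TPM with 1 uM ONO and 43.3, 39.9, 39.5 and 39.3 TPM with vilanterol. Vehicle did not overlap with either agonist, and both falls passed the test (to 0.867 and 0.761 of vehicle). BUB1B and MAD2L1, which hold back the APC/C activator, fell by 0.16 and 0.17 on the log2 scale with vilanterol and did not pass the test with 1 uM ONO. BUB1 and BUB3, which bring the other checkpoint proteins to kinetochores, passed the test with neither agonist. BUB3 was at 213 ± 11.7 TPM in vehicle and 202 ± 10.3 TPM with vilanterol, and BUB1 at 51.1 ± 3.55 and 46.4 ± 4.15 TPM.

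Of the 8 kinesins, motor proteins of the spindle, 2 fell with 1 uM ONO and 4 with vilanterol. KIF2C (MCAK), which depolymerises microtubules at kinetochores, was at 84.0, 79.0, 79.4 and 78.6 TPM in vehicle, 71.5, 73.2, 67.0 and 68.3 TPM with 1 uM ONO and 69.8, 63.9, 62.8 and 65.6 TPM with vilanterol. The ranges of KIF2C under treatment lay wholly under the vehicle range. KIF20B, a kinesin of cytokinesis, fell to 0.856 and 0.827 of vehicle. KIF23, of the central spindle, fell by 17.1% with vilanterol, and KIF20A, of the same structure, to 0.838. KIF11 (Eg5), the motor that pushes the spindle poles apart, was at 66.8 ± 5.77 TPM in vehicle, 66.7 ± 2.65 TPM with 1 uM ONO and 63.0 ± 2.88 TPM with vilanterol, and KIF4A, KIF14 and KIF18A did not pass the test with either agonist. Without vehicle library 3, the lowest of its group at 58.2 TPM, KIF11 fell with vilanterol (log2 fold change -0.14, limma adjusted p = 0.0126).

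The 11 other spindle proteins varied widely in size of response, with 4 lower with 1 uM ONO and 7 with vilanterol. PSRC1, a microtubule-binding protein of the spindle, was at 27.6, 25.4, 31.3 and 27.1 TPM in vehicle, 19.4, 19.99, 19.2 and 20.7 TPM with 1 uM ONO and 17.3, 15.7, 15.1 and 17.4 TPM with vilanterol. FAM83D, which anchors casein kinase 1 alpha on the spindle, was at 75.2, 72.1, 68.8 and 68.3 TPM, 53.6, 53.7, 45.4 and 49.3 TPM and 50.3, 43.0, 38.7 and 41.0 TPM. CKAP2, which stabilises spindle microtubules, was at 78.1, 77.0, 78.8 and 73.3 TPM, 64.7, 66.0, 62.6 and 61.1 TPM and 57.6, 61.8, 60.3 and 54.7 TPM. None of the 3 genes had a treated library within its vehicle range. PSRC1 fell to 0.712 of vehicle with 1 uM ONO (adjusted p = 5.87e-09) and 0.587 with vilanterol (adjusted p = 2.76e-14). FAM83D fell to 0.71 and 0.608, and CKAP2 to 0.828 and 0.763. GTSE1, TACC3, HMMR and DLGAP5 fell with vilanterol by 0.21 to 0.27 on the log2 scale. Against these, NUSAP1 and PRC1, which bundle microtubules, were at 112 ± 1.91 and 124 ± 3.17 TPM with vilanterol, against 116 ± 3.85 and 129 ± 4.38 TPM in vehicle, and neither passed the test.

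The genes of anaphase all fell with vilanterol. They are CDC20, the activator of the anaphase-promoting complex, UBE2C, its ubiquitin-conjugating enzyme, PTTG1 (securin), ESPL1 (separase) and CDCA3, a mitotic entry factor that acts with SCF. With 1 uM ONO only UBE2C and CDCA3 of these fell. CDC20, PTTG1 and ESPL1 did not pass the test there (limma adjusted p = 0.0598, 0.118 and 0.21). With vilanterol CDC20 and ESPL1 fell to 0.824 and 0.859 of vehicle, and their libraries overlapped with vehicle. CDCA3 was at 34.7, 33.2, 39.1 and 32.6 TPM in vehicle, 30.5, 29.3, 28.3 and 30.01 TPM with 1 uM ONO and 27.3, 26.6, 25.6 and 25.7 TPM with vilanterol, with no overlap of vehicle with either. UBE2C was at 242, 257, 298 and 268 TPM, 235, 234, 223 and 245 TPM and 221, 226, 211 and 235 TPM in these groups. Vehicle library 1 of UBE2C lay under the highest library with 1 uM ONO, and both falls passed the test (to 0.879 and 0.838 of vehicle). PTTG1, with the highest mean level of the 60 genes, was at 309.5, 319, 424 and 312 TPM in vehicle and 288, 292, 299 and 287 TPM with vilanterol. Vehicle library 3 alone was above 318.9 TPM, and the fall of PTTG1 was to 0.855 of vehicle (adjusted p = 0.00527).

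Among the remaining genes, HYLS1, a centriole protein needed for cilia, was at 4.56, 4.70, 5.27 and 4.81 TPM in vehicle, 3.03, 3.61, 2.94 and 3.54 TPM with 1 uM ONO and 2.75, 2.32, 3.18 and 2.62 TPM with vilanterol. CDCA2 (Repo-Man), which brings a protein phosphatase to chromatin in anaphase, was at 25.1, 21.5, 20.4 and 22.9 TPM, 19.0, 18.2, 17.1 and 17.2 TPM and 17.8, 15.2, 15.8 and 15.8 TPM. Neither gene had a treated library in the vehicle range. HYLS1, the lowest in level of the 60, fell to 0.679 and 0.562 of vehicle, and CDCA2 to 0.796 and 0.719. DEPDC1 fell to 0.869 and 0.797.

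A set of 14 mitotic genes passed the test in none of the 9 comparisons with vehicle. They were CDC25B, BUB1, BUB3, SGO1, CENPF, KIF4A, KIF14, NUSAP1, ASPM, SPAG5, ECT2, ANLN, FOXM1 and TOP2A. FOXM1, a transcription factor that drives genes of G2 and M phase, was at 116, 113, 91.3 and 106 TPM in vehicle, 109, 108, 102 and 107 TPM with 1 uM ONO and 110.2, 106, 99.0 and 101 TPM with vilanterol. TOP2A, the topoisomerase that untangles chromosomes, was at 259.7, 254, 227 and 241 TPM, 249, 241, 246 and 246 TPM and 245, 250.5, 241 and 225 TPM. For both genes vehicle library 3 was the lowest of its group and the treated libraries lay within the vehicle range, apart from vilanterol library 4 of TOP2A at 225.4 TPM. Without vehicle library 3, ASPM fell with vilanterol (log2 fold change -0.25, limma adjusted p = 0.00067) and with both combinations at the highest agonist concentrations, CENPF with vilanterol alone or with RNO, and KIF4A and KIF14 with vilanterol and RNO. BUB1 fell with vilanterol without library 1 of that group, and with vilanterol and RNO without vehicle library 4. With the replicate block, BUB1, BUB3, SPAG5, KIF4A, KIF14 and ECT2 fell with vilanterol (limma adjusted p from 4e-04 to 0.042). In that fit 51 of the 60 and 15% of all genes fell with vilanterol. Against RNO in place of vehicle, 9 of the 14 fell with vilanterol and RNO, among them ASPM to 0.784 and TOP2A to 0.888 of RNO (adjusted p = 0.00103 and 0.0026). The cytokinesis genes ECT2 and ANLN had log2 fold changes of -0.067 and 0.0061 with vilanterol. Of these genes ASPM, NUSAP1, ECT2, ANLN, CENPF, KIF4A, KIF14, SPAG5 and TOP2A also have TTTGAA in their promoter window, and BUB1 and SGO1 have TTCGAA. Over the 51 matched genes the median log2 fold change with vilanterol was -0.21 in the 37 with a TTTGAA or TTCGAA and -0.26 in the 14 without. In the 6 with a TTCGAA it was -0.53, and these were widely spread. CCNF, PSRC1 and BORA were at -0.75, -0.73 and -0.72, but NDC80 was at -0.33, BUB1 at -0.14 and SGO1 at -0.10.

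Few of these genes changed at the lower concentrations of ONO. With 0.1 nM ONO none of the 60 was called by limma, and 0% of all genes fell. At an unadjusted p under 0.05 there were 3 of the 60 genes and 736 of all genes, and the median log2 fold change of the 60 was 0.010. With 1 nM ONO 3 fell (0.357% of all genes fell), HJURP, PSRC1 and CCNF. HJURP was at 34.1, 32.9, 31.2 and 35.4 TPM with 1 nM ONO, and PSRC1 was at 22.4, 24.0, 24.4 and 23.8 TPM. The 4 libraries of each lay under the 4 vehicle libraries. Their log2 fold changes were -0.27 and -0.22, and that of CCNF was -0.25 (adjusted p = 0.00505, 0.00887 and 0.0417). With the replicate number as a block 14 fell and ANLN rose (3.83% of all genes fell and 4.64% rose in that fit), and the count was 0 with only the 8 libraries fitted and 1 without vehicle library 3 or without library 1 of 1 nM ONO. In 41 of the 60 genes the group means stood in the order vehicle, 1 nM ONO, 1 uM ONO and vilanterol from high to low. This order leaves out 0.1 nM ONO, where the mean of log2(TPM + 1) over the 60 genes was 5.91, against 5.89 in vehicle. It also places vilanterol, another agonist, after ONO, and no share of all genes in this order is given.

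With RNO alone none of the 60 mitotic genes was called by limma, against 0.135% of all genes called lower, and 7 of the 60 and 1549 of all genes had an unadjusted p under 0.05. The median log2 fold change of the 60 was 0.024, and 37 of the 60 had a value above 0, while 48.1% of all genes were under 0. HJURP was at 42.1, 39.2, 34.8 and 39.01 TPM and PLK1 at 88.6, 78.5, 75.2 and 74.5 TPM with RNO, both overlapping vehicle. TOP2A was at 267, 271, 261 and 259 TPM. With the replicate block 6 genes rose with RNO, namely TOP2A, CENPE, KIF11, BUB1B, ANLN and ASPM (2.52% of all genes rose in that fit). The block gave 2 genes when vehicle library 3 was left out. Without the block and without vehicle library 1 ANLN alone was called (higher, limma adjusted p = 0.0321).

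**Figure D3:**
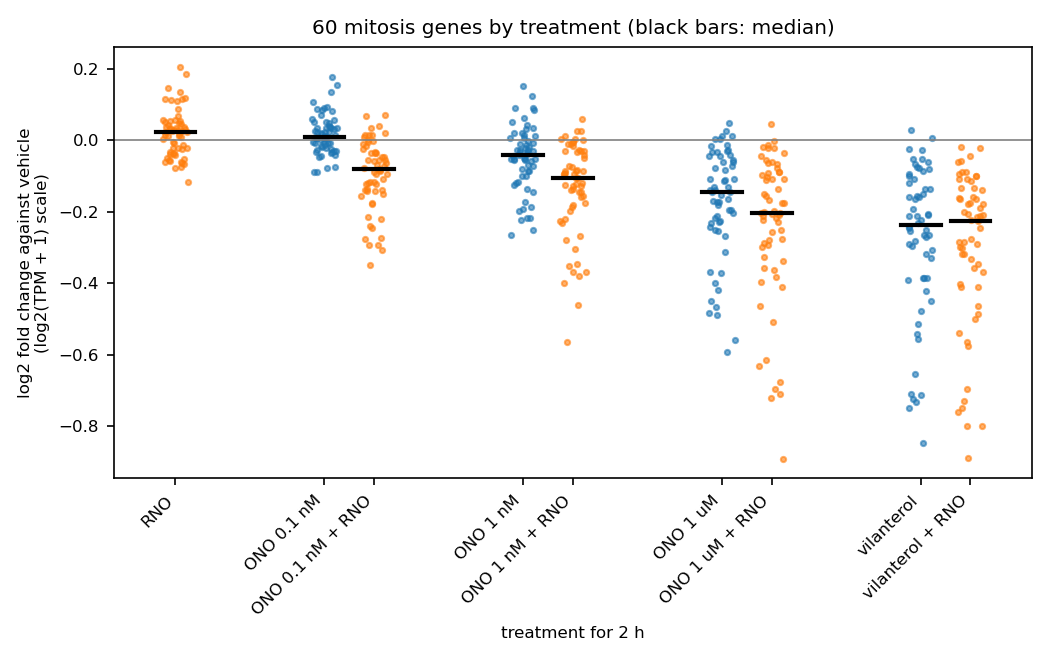
Log2 fold change against vehicle (vertical, log2(TPM + 1) scale) of each of the 60 mitotic genes (points) in the 9 treatments (horizontal), with the median of the 60 as a bar. The medians go from 0.024 with RNO and 0.010 with 0.1 nM ONO to -0.24 with vilanterol, and adding RNO gives a lower median at each ONO concentration.

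RNO keeps cAMP from being degraded, and the design pairs each agonist treatment with and without it. Against vehicle, 5 genes fell with 0.1 nM ONO and RNO (0.214% of all genes fell), 16 with 1 nM ONO and RNO (1.27%), 38 with 1 uM ONO and RNO (6.86%) and 46 with vilanterol and RNO (8.44%). The 5 at the lowest concentration were BORA, CCNF, CENPA, HJURP and PSRC1. With the replicate block that count was 21 (1.91% of all genes fell in that fit), with libraries rescaled to equal totals 3, with only the 8 libraries fitted 0, and without library 1 of the combined treatment 9. In the combination with 1 nM ONO only 5 genes passed with the 8 libraries fitted alone. The fall of HJURP was 0.35, 0.56, 0.89 and 0.89 on the log2 scale in the 4 combinations in turn. All 60 genes had a log2 fold change under 0 with vilanterol and RNO, or 58 with libraries rescaled to equal totals. Of all genes, 52.4% were under 0 there without rescaling. In the ONO series with RNO, the group means went down in order from RNO alone to 1 uM ONO with RNO in 46 of the 60 genes. The share of all genes in that order is not given.

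Added to 0.1 nM ONO, with which alone none of these genes was called, RNO lowered 5 of the 60 (0.0635% of all genes fell). HJURP was at 42.5, 39.1, 39.9 and 39.3 TPM with 0.1 nM ONO and at 34.0, 30.02, 30.02 and 31.7 TPM with RNO added, a fall to 0.783 (adjusted p = 0.000165). PSRC1 was at 28.4, 27.8, 29.7 and 27.2 TPM and 23.0, 22.7, 22.9 and 22.4 TPM, a fall to 0.805 (adjusted p = 0.000223). The groups did not overlap for either gene. CCNF, FAM83D and CKAP2 were the other genes called, at 0.8, 0.816 and 0.876 of the level with 0.1 nM ONO. The median of the 60 was -0.094 on the log2 scale, and 58 of the 60 were under 0, against 50% of all genes. The replicate block gave 23 lower genes, with 0.596% of all genes lower in that fit. Rescaled libraries or only the 8 libraries compared gave 3, and leaving out library 1, 2 or 3 of 0.1 nM ONO or library 2, 3 or 4 of the combination gave 2 or 3.

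With RNO added to the higher ONO concentrations fewer of the 60 genes were called, and whether its effect differed between concentrations was not tested. With 1 nM ONO it lowered 2 genes (0.0159% of all genes fell), HJURP to 0.808 and HYLS1 to 0.73 of the level with ONO alone. HYLS1 was at 4.33, 4.89, 4.92 and 4.98 TPM with 1 nM ONO and 4.03, 3.12, 3.49 and 3.31 TPM with RNO added, without overlap. With 1 uM ONO it lowered 3 (0.0715% of all genes fell). These were BORA, HJURP and PSRC1, to 0.81, 0.807 and 0.846. HJURP was at 22.5, 21.1, 20.9 and 20.8 TPM with 1 uM ONO and RNO, each library under the 4 of 1 uM ONO alone. With the replicate block the counts were 8 and 6 (0.23% and 0.905% of all genes fell in that fit), with only the 8 libraries compared 0 and 1, and leaving out 1 library gave 0 to 2 and 1 to 2. The count with 1 nM ONO was 0 without library 4 of either group and 1 without library 2 or 3 of either, and with 1 uM ONO it was 1 without library 2 or 4 of ONO alone or library 3 of the combination. With vilanterol none of the 60 was called by limma on adding RNO (0% of all genes fell), with 1 of the 60 and 180 of all genes at an unadjusted p under 0.05. The median there was -0.022, and 0.0034 with rescaled libraries. HJURP was at 22.6, 21.1, 21.2 and 20.3 TPM with vilanterol and RNO, overlapping vilanterol alone.

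**Figure D4:**
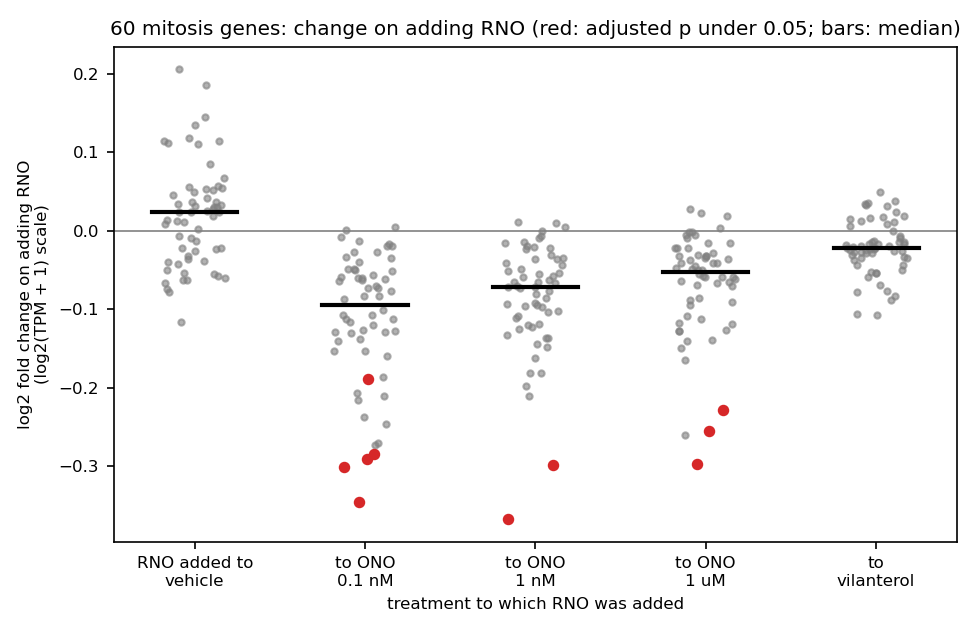
Log2 fold change on adding RNO (vertical, log2(TPM + 1) scale) of each of the 60 mitotic genes (points) to vehicle, to the 3 concentrations of ONO and to vilanterol (horizontal), with called genes in red and the median as a bar. The 5 red points at 0.1 nM ONO, 2 at 1 nM and 3 at 1 uM all lie under 0, and there are none at vehicle and at vilanterol.

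The interaction asks whether RNO changed a gene more with the agonist than without. No interaction was called by limma for any of the 60 genes, while 0.00794% of all genes were called lower with 0.1 nM ONO, 0% with 1 nM ONO, 0.0159% with 1 uM ONO and 0.00794% with vilanterol. At an unadjusted p under 0.05 there were 23, 16, 11 and 7 of the 60 genes, and 872, 1108, 997 and 726 of all genes. The median interaction of the 60 was -0.13, -0.096, -0.082 and -0.040 on the log2 scale, with 56, 52, 50 and 40 of the 60 under 0. Of all genes, 51.5%, 51.2%, 51.9% and 52.3% were under 0. These interactions all use the same RNO and vehicle libraries. HYLS1 had the lowest interaction at 1 nM ONO (-0.51 ± 0.11 SE, adjusted p = 0.108). For 0.1 nM ONO the replicate block gave 16 lower genes (0.667% of all genes), with HJURP at -0.29 and PSRC1 at -0.24. Without vehicle library 3 or RNO library 3 1 gene was called in that comparison (PSRC1 and HJURP in turn), and without library 1 of 1 nM ONO or of its combination HYLS1 was called at 1 nM ONO.

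The agonists were also compared with each other, 1 uM ONO against 100 nM vilanterol. Of the 60 mitotic genes, 57 had a higher level with ONO than with vilanterol, with a median difference of 0.085 on the log2 scale, and 4 passed the test (0.421% of all genes were called higher). Of all genes, 49.4% had a lower level with ONO than with vilanterol. BORA was 1.29-fold higher with ONO (adjusted p = 0.00262). SGO2, HJURP and PSRC1 were 1.22-fold, 1.2-fold and 1.21-fold higher, with no overlap of the 4 and 4 libraries for any of these genes. The replicate block gave 23 genes (1.87% of all genes were higher in that fit), and leaving out single libraries gave 4 to 6. Against 0.1 nM ONO in place of vehicle, 25 of the 60 genes fell with 1 uM ONO (1.61% of all genes fell) and 43 with vilanterol (6.69%). Against RNO alone, 44 fell with 1 uM ONO and RNO (5.2%) and 53 with vilanterol and RNO (7.26%). These comparisons do not use the vehicle libraries, and the medians of the 60 in the 4 were -0.18, -0.26, -0.22 and -0.28. The genes not called with vilanterol and RNO against RNO were CDC25B, BUB3, MAD2L1, SGO1, SPAG5, PTTG1 and FOXM1.

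Among the 60 genes, those at lower levels tended to have larger falls. Across genes, Pearson's r between the log2 fold change and the log2 mean level was 0.41 with 1 uM ONO and 0.45 with vilanterol (n = 60 genes, which are not independent and share the same libraries). Spearman's rank correlation was lower, at 0.324 and 0.364. BORA, CCNF and HYLS1 were under 10.0 TPM in vehicle on average and fell to between 0.554 and 0.562 of vehicle with vilanterol, but ESPL1, at 10.3 ± 1.06 TPM, fell only to 0.859. The mean of log2(TPM + 1) over the 60 genes was 5.89 ± 0.035 in vehicle, 5.91 ± 0.020 with RNO, 5.72 ± 0.035 with 1 uM ONO, 5.61 ± 0.049 with vilanterol and 5.59 ± 0.049 with vilanterol and RNO (SD, n = 4). The vilanterol and 1 uM ONO libraries did not overlap with vehicle on this scale.

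Genes of the same pathway outside the 60 were counted from 5 lists, to be read against the 3.02% of all genes that fell and 4.19% that rose with 1 uM ONO, and the 7.97% and 9.69% with vilanterol. Of 39 other mitosis genes 12 fell and 1 rose with 1 uM ONO, and 22 fell and 2 rose with vilanterol. PIF1, a helicase, fell to 0.654 of vehicle with 1 uM ONO and 0.616 with vilanterol, and WEE1, the kinase that inhibits CDK1, to 0.822 and 0.795. CDC25A, a phosphatase that activates CDKs and acts from the start of S phase, was 1.11-fold and 1.3-fold higher (limma adjusted p = 0.0318 and 3.62e-08). Of 17 subunits and regulators of the APC/C, 2 fell with 1 uM ONO and 7 with vilanterol, among them its inhibitor FBXO5 (to 0.88 and 0.831 of vehicle). Of 18 condensin and cohesin genes none was called with 1 uM ONO and 2 fell with vilanterol, NCAPG and SMC4. Of 15 genes of the MuvB and DREAM complexes with B-MYB and NF-Y, 1 rose and 1 fell with 1 uM ONO, and 2 rose and 4 fell with vilanterol, with NFYA lower in both (at 0.906 and 0.892 of vehicle). Of 32 genes of S phase and DNA replication none fell with either agonist, 2 rose with 1 uM ONO (RRM2 and ORC1) and 4 with vilanterol (the same genes, CDC6 and CLSPN), counts near the shares over all genes. RRM2, a subunit of ribonucleotide reductase, went from 206 ± 6.32 TPM in vehicle to 221 ± 4.14 TPM with 1 uM ONO and 233 ± 1.58 TPM with vilanterol (SD, n = 4). The medians of the 39 other mitosis genes and the 32 S phase genes with vilanterol were -0.11 and -0.0060, against -0.24 for the 60 genes.

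**Figure D5:**
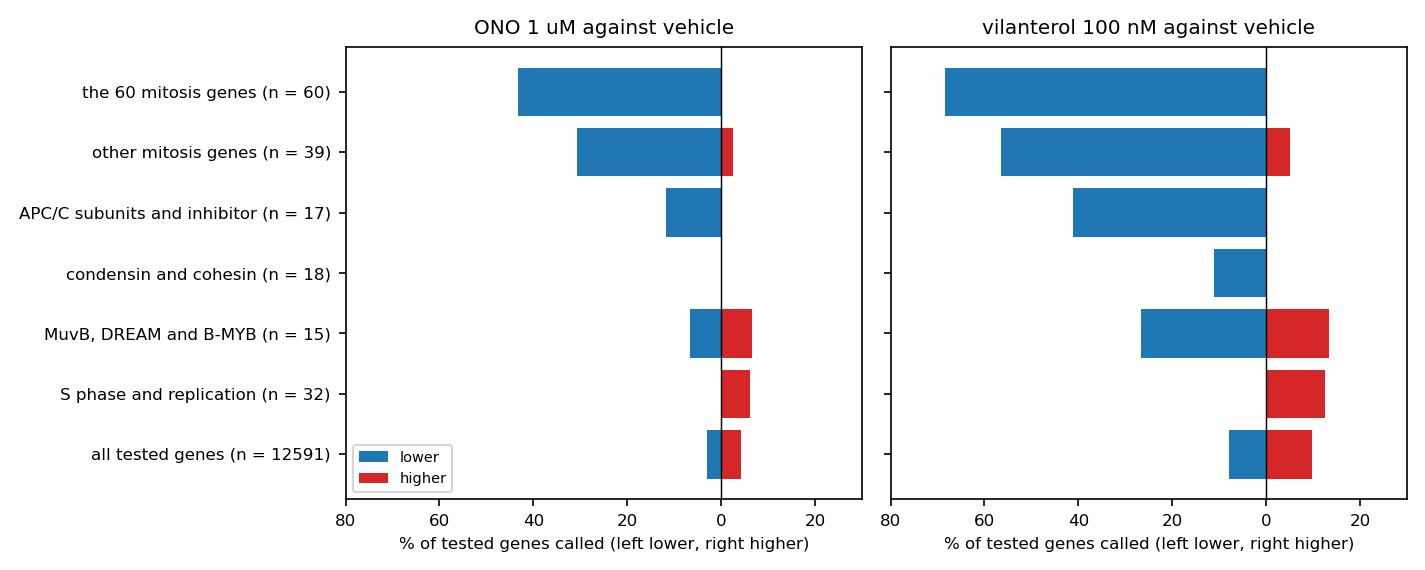
Percent of the tested genes of each list called lower (bars to the left) or higher (bars to the right) by limma with 1 uM ONO and with 100 nM vilanterol against vehicle. The 60 mitotic genes have bars only to the left, the 32 S phase genes only to the right (2 genes with 1 uM ONO and 4 with vilanterol), and all 12591 tested genes have bars on both sides.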

How the data were processed

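RNA from 40 libraries of BEAS-2B cells in 10 groups of 4 was sequenced by the submitters from directional poly(A) libraries, per the labels' protocols. The submitters' processing notes list bcl2fastq 2.18.0.12, kallisto and sleuth beside the builds hg19 and GRCh37. For kallisto and sleuth no version is stated there. The authors deposited, for 15788 genes and 40 libraries, a normalised signal. It was taken as TPM adjusted between samples from the name of the deposited data and because the column totals are not equal, and how the adjustment was made is not stated. TPM had been assumed when the test was chosen, the values were treated as such, and they are called TPM in the text. No counts were analysed here and the depth is unknown, so no interval from counting error is given.

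Values were transformed to log2(value + 1). Genes averaging 1 TPM or more across the 40 libraries (12591) were fitted with limma 3.58.1 (R 4.3.3 with the data.table package at 1.17.8), with 1 mean per group over all 40 libraries, moderated variances with an intensity trend and 30 residual degrees of freedom. There were 22 comparisons, and p-values were adjusted by Benjamini-Hochberg over all genes tested within each. A fold is 1 group mean in TPM divided by the other, and log2 fold changes understate the change of genes at low levels. The fit was tested on simulated data with independent noise in each library. That test does not cover the correlation between same-numbered libraries described below. Python 3.11.15 with pandas 2.3.3 and matplotlib 3.10.9 read the RefSeq promoters and drew the figures.

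The members and the other gene lists were chosen with earlier results of these data known. Members called in at least 3 comparisons with vehicle were described first, then those called in any other, then uncalled members with the highest levels of each role. Of the other lists, up to 4 called genes per list and comparison may be named, by size of change. SGO1 and SGO2 were matched through their older symbols.

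Whether replicate numbers pair the libraries was checked by the correlation of deviations from the group means. Same-numbered libraries of different groups had a median r of 0.259 (0.0204 to 0.542, over 0.1 in 174 of 180 pairs), against -0.0846 for different numbers. In 16 of the 22 comparisons every same-numbered pair was over 0.1, and there a fit with the replicate number as a block is given beside a count that it moved by over 1.5 times. The pairing comes from this check, since the labels give only the numbers. Alternatives were a pseudocount of 0.1, no filter on low values, libraries rescaled to equal totals, the replicate block, only the compared groups, and each library left out in turn.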

Additional observations from a re-analysis of the deposited data

Results flagged for a closer look

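For the 16 mitotic genes called in at least 5 of the 9 comparisons with vehicle, each group of 4 libraries was screened for a library whose gap to its nearest neighbour was large against the range of the group. Of 160 such groups 11 stood out, where chance gives about 1 in 20. CENPA was highest in vehicle library 3, at 41.7 TPM with the next at 33.5 TPM. KIF2C was highest in vehicle library 1, at 84 TPM with the next at 79.4 TPM. BORA was lowest in library 4 of 0.1 nM ONO, at 6.76 TPM with the next at 7.63 TPM, and highest in library 2 of 1 uM ONO with RNO, at 5.11 TPM with the next at 4.48 TPM. HYLS1 was lowest in library 1 of 1 nM ONO, at 4.33 TPM with the next at 4.89 TPM, and lowest in library 4 of 0.1 nM ONO with RNO, at 3.92 TPM with the next at 4.42 TPM.

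In 4 of the cases library 1 of a combined treatment was the highest of its group. CDCA8 was at 43.2 TPM in library 1 of 1 nM ONO with RNO (next 35.1 TPM), and FAM83D was at 59.7 TPM there (next 52 TPM). CDCA2 was at 21.6 TPM in library 1 of 0.1 nM ONO with RNO (next 18.4 TPM). HJURP was at 22.5 TPM in library 1 of 1 uM ONO with RNO (next 21 TPM). CDCA3 was lowest in library 2 of vilanterol with RNO, at 25.6 TPM with the next at 27 TPM.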

How the results depend on the processing

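Of 354 calls of a mitotic gene in a comparison, none reversed in any alternative (4777 values, 4335 still called, 442 no longer called). All 354 were still called with a pseudocount of 0.1 and with the replicate block, 348 without a filter, 317 after rescaling each library to the same total and 248 with only the compared groups fitted. Depth could not be weighed because no counts were analysed.

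The replicate block moved these counts of members called: RNO 6 from 0, 1 nM ONO 15 from 3, 0.1 nM ONO with RNO 21 from 5, and 1 nM ONO with RNO 31 from 16. For RNO added to 0.1 nM, 1 nM and 1 uM ONO they were 23, 8 and 6 from 5, 2 and 3. They were 40 from 25 for 1 uM ONO against 0.1 nM ONO and 23 from 4 for 1 uM ONO against vilanterol. The interactions with 0.1 nM, 1 nM and 1 uM ONO gave 16, 8 and 5 from 0. With the block 4.35% of all genes fell with 1 nM ONO and RNO, and 4.58% with 1 uM against 0.1 nM ONO. In the interactions with 1 nM and 1 uM ONO 0.564% and 1% of all genes were lower. Shares of all genes for the other counts stand beside them in the Results. With the block and without vehicle library 3 the counts were RNO 2, 1 nM ONO 10, 0.1 nM ONO with RNO 18, 1 nM ONO with RNO 26, and 27, 8, 12 and 1 for the 4 interactions. No share of all genes is given for the fit without that library. Its counts therefore do not show whether the mitotic genes moved more than all genes. All 40 libraries correlated best with their own number. In the 6 comparisons in which not every pair correlated over 0.1, the libraries share only a number, and the block is not a paired fit. Among them are 1 nM ONO with RNO against vehicle, 1 uM against 0.1 nM ONO and vilanterol with RNO against RNO. The others are the interactions with 1 nM ONO, 1 uM ONO and vilanterol.

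With only the compared groups fitted the counts were 0 for 1 nM ONO, 11 for 1 uM ONO, 25 for vilanterol, 0, 5, 24 and 30 for 0.1 nM ONO, 1 nM ONO, 1 uM ONO and vilanterol with RNO, and 3, 0 and 1 for RNO added to 0.1 nM, 1 nM and 1 uM ONO. Rescaling gave 3 for 0.1 nM ONO with RNO against vehicle and 3 against 0.1 nM ONO. Leaving out 1 library gave 0 to 1 for RNO, 1 to 3 for 1 nM ONO, 4 to 9 for 0.1 nM ONO with RNO, 2 to 5, 0 to 2 and 1 to 2 for RNO added to 0.1 nM, 1 nM and 1 uM ONO, and 0 to 1 for the interactions with 0.1 nM and 1 nM ONO. For these fits of compared groups, rescaled libraries or 1 library fewer, no share of all genes is given. The counts therefore do not show whether the mitotic genes moved more than all genes there. Rescaling also moved the median of the members to 0.058 with RNO, 0.053 with 0.1 nM ONO and -0.21 with 1 uM against 0.1 nM ONO.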
